A study of Mus musculus with 4 samples.

Results

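The genes described here encode subunits of the transcription factor NF-kB and the proteins that inhibit or adjust it, in epidermal Langerhans cells of mice given TCDD or vehicle. Langerhans cells are the antigen-presenting cells of the epidermis, and the dioxin TCDD activates AhR, the aryl hydrocarbon receptor, a transcription factor. All probe sets that the platform annotation assigned to exactly 1 of 10 chosen gene symbols were kept and shown separately. This gave 13 of 22690 probe sets, for 9 of the 12393 genes named on the arrays: 4 for Nfkbia, 2 for Nfkb2 and 1 each for Relb, Rel, Rela, Nfkbib, Nfkbie, Bcl3 and Tnfaip3. Nfkb1 was not analysed here. All 13 lay above the filter on low signal, a mean log2 signal of 6.85, which 13576 probe sets passed.

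The 4 samples were 2 TCDD arrays and 2 control arrays, each of sorted cells taken 24 h after an injection of 100 µl into the peritoneum. TCDD 1 received 10 µg TCDD in oil and names no skin site, and TCDD 2 received 10 µg TCDD in DMSO and oil and came from back skin. Control 1 received DMSO and olive oil and names no skin site, and control 2 came from back skin. The stated vehicles of TCDD 1 and control 1 differ, so TCDD and vehicle cannot be told apart between these arrays. The treatment protocol of control 2 names TCDD, against its title and description, which were followed. Strain, age, sex and the number of animals behind an array are not stated in the labels, so the spread behind the p-values is that of these 4 arrays and may be technical. The stated sort purity was 95%. Epcam, an adhesion molecule of Langerhans cells, had signals of 7541 and 8362 in TCDD samples, against 8717 and 10032 in controls. All 8 Langerhans cell markers checked passed the filter. So did 6 of 7 T cell, 5 of 5 melanocyte, 4 of 7 keratinocyte and 2 of 4 B cell markers. Of fibroblast and endothelial markers 3 of 8 passed, and of mast cell, granulocyte and monocyte markers 3 of 7. Passing the filter thus does not tell cell types apart. Array medians ran from 164.9 to 188.1. The actin control probe sets gave a 3′ to 5′ signal ratio, which grows as RNA is broken or incompletely copied, of 3.48 on TCDD 1, 7.71 on TCDD 2, 49.7 on control 1 and 4.64 on control 2, so control 1 stood apart.

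NF-kB acts as dimers of RelA, c-Rel, RelB, p50 and p52. IkB proteins (Nfkbia, Nfkbib and Nfkbie encode IkB alpha, beta and epsilon) bind the dimers and keep them from the DNA until a kinase complex marks them for destruction. In the alternative pathway, signals such as CD40 lead to the processing of p100, the product of Nfkb2, to p52, which frees RelB dimers. RelB is needed for the formation of several dendritic cell populations in mice and is abundant in mature dendritic cells, and AhR has been reported to bind RelB and RelA in cultured cells of other types.

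Several of these genes are themselves targets of NF-kB, so that the factor restocks its own inhibitors. The 250 bases before the annotated start of transcription were therefore read for the kB consensus, a motif of 10 letters, on both strands with overlapping matches allowed. RefSeq promoter entries (GRCm38.p6) matched 8 of the genes with 11 promoters. A match was present in 7 of the 11 promoters, those of Nfkbia, Nfkbie and Rel, all 3 entries of Nfkb2 and 1 of the 2 of Tnfaip3, and in 3.9% of all 32851 promoters of the same length. Of the others, Rela, Bcl3 and Nfkbib held no match in this window. For each of the 5 genes with a match, 1 such promoter is shown from 5′ to 3′ with the matches in capitals, of Nfkb2 and Tnfaip3 the entry that lies farthest upstream. The promoters of Nfkbia, Nfkb2, Rel, Tnfaip3 and Nfkbie lie at chr12:55492648-55492897 on the minus strand, chr19:46304487-46304736 on the plus strand, chr11:23770970-23771219 on the minus strand, chr10:19015411-19015660 on the minus strand and chr17:45555450-45555699 on the plus strand, in that order.
Nfkbia: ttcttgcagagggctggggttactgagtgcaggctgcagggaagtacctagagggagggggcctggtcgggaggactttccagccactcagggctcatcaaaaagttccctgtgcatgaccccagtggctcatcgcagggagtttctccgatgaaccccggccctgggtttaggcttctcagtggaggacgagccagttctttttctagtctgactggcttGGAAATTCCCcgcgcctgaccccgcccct
Nfkb2: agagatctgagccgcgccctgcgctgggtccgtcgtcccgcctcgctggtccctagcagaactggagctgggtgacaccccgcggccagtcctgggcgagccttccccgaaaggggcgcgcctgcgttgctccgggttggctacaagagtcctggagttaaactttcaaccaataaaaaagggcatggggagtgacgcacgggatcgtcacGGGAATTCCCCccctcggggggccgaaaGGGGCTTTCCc
Rel: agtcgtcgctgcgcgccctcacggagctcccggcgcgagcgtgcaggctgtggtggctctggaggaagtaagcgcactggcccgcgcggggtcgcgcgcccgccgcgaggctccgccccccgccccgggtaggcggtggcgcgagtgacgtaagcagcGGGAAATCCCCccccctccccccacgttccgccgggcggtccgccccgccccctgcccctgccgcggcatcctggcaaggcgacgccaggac
Tnfaip3: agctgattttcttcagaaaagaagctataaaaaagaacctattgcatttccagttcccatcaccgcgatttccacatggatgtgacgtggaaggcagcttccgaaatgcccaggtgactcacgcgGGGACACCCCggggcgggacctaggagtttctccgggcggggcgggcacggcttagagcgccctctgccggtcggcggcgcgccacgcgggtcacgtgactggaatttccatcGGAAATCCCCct
Nfkbie: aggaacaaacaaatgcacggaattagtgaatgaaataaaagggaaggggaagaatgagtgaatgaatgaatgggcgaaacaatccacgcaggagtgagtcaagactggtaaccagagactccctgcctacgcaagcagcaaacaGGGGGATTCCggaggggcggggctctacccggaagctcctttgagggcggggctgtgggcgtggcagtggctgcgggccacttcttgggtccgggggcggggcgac
The capitals of Rel and the first capitals of Nfkb2 each hold several overlapping matches, since the motif is nearly the same on both strands. In Nfkbia the match lies 29 to 20 bases before the start. The core letters of the AhR binding motif, GCGTG, were found on either strand in 6 of the 11 promoters (of Nfkb2, Nfkbie, Rel and Tnfaip3) and in 28.2% of all promoters. Such matches describe the letters of these windows only.

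The main comparison asked whether TCDD changed the expression of these genes. No member probe set passed the test: 0 of 13 had an adjusted p under 0.05 (limma, Benjamini-Hochberg over 13576 probe sets, 0.0% of which passed), and 0 of 13 had an unadjusted p under 0.05, against 1.47% of all tested probe sets. The log2 differences, TCDD minus control, ran from -0.36 for Bcl3 to 0.59 for 1 probe set of Nfkbia, with a median of -0.03 against -0.01 over all probe sets tested. Their standard errors were 0.26 to 0.43, and for every probe set but Nfkbia 1449731_s_at the standard error exceeded the difference. With errors this wide, failing the test does not show that a gene was unchanged. The arrays were also compared within pairs, back skin and no site named. Here and below both pairs are called sites for short, though the skin site of the second is not known. Within these, 3 probe sets were higher after TCDD at both, 5 were lower at both and 5 went opposite ways. Over all tested probe sets, 19.3% were higher at both sites, 21.3% lower at both and 59.3% opposite. Comparing the groups without the sites, 1 probe set lay higher in both TCDD samples than in both controls (12.4% of all tested). In the other direction 1 lay lower (13.2%), or 2 (12.8%) once each array was centred on its median.

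**Figure D1:**
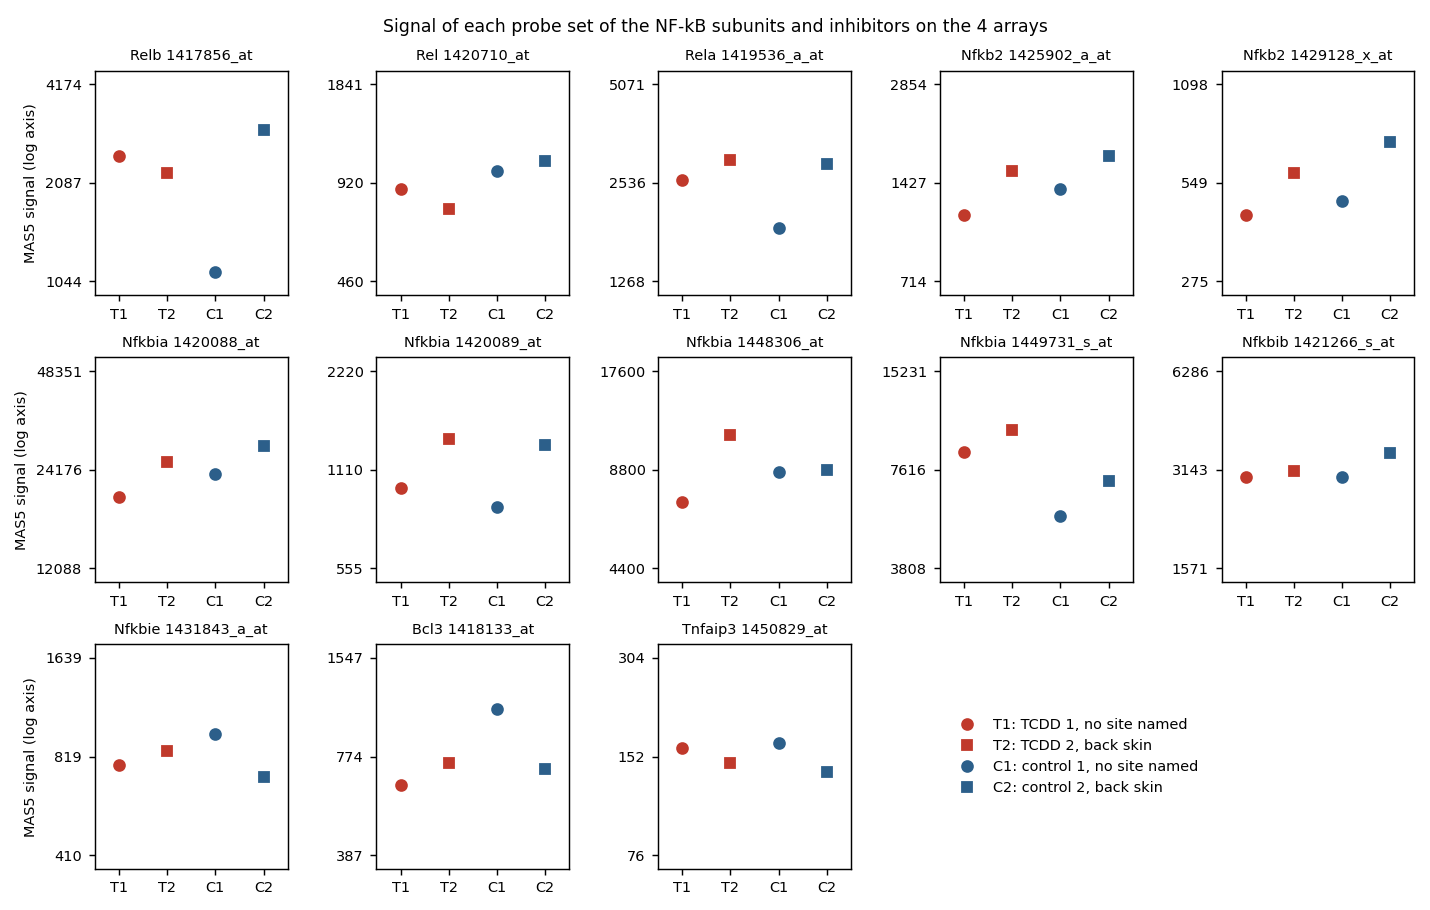
MAS5 signal (log axis) of the 13 probe sets on TCDD 1, TCDD 2, control 1 and control 2; each point is 1 array, red for TCDD and blue for control, a circle where no skin site is named and a square for back skin. The axis of every panel spans the same fold range around that probe set's mean: Relb spreads most, by 2.71-fold, and Nfkbib least, by 1.19-fold.

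Among the subunits, Relb varied most between arrays. RelB is the partner of p52 in the alternative pathway. Its signal was 2520.1 and 2243 in TCDD samples 1 and 2, against 1113 and 3017 in controls 1 and 2. The TCDD samples thus lay between the controls, with control 1 the lowest array and control 2 the highest. The log2 difference was 0.38 ± 0.43 (SE, n = 2 per group, 95% interval -0.61 to 1.36), which did not pass the test (limma, adjusted p = 0.9999). Within sites Relb after TCDD was 0.74-fold of control in back skin and 2.27-fold of control where no site was named, log2 ratios of -0.43 and 1.18. Each ratio rests on 1 pair of arrays, and their difference was not tested. The difference depended on the control: it was -0.34 without control 1 and 1.10 without control 2 (limma, adjusted p = 0.998 and 0.103).

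The low Relb value came from control 1, where the 3′ to 5′ ratio was highest. Control 1 was the lowest of the 4 arrays for 31.7% of all tested probe sets, and for 7.54% every other array was more than 1.5 times as high as control 1, as for Relb. The Langerhans cell markers did not share 1 pattern: control 1 was the lowest array for 3 of the 8, Cd207, Cd74 and H2-Aa, and it lay above both TCDD arrays for Epcam, Csf1r, Ptprc and Itgax. Their summed signal was 38742 and 38978 in TCDD samples, against 35452 and 50102 in controls. Cd207, which encodes langerin, the lectin that marks Langerhans cells, had signals of 5343 and 2155 in TCDD samples 1 and 2, against 2119.9 and 7211 in controls 1 and 2, in the same order of arrays as Relb. Cd3e, which marks T cells, was also high on TCDD 1 and control 2. It had 386.9 and 112.7 in TCDD samples, against 197.5 and 471.3 in controls. Krt14, a keratinocyte marker, was lowest on control 2, with 172.6 and 249.5 in TCDD samples, against 176.6 and 166.1 in controls. The summed signal of the 7 measured T cell markers was 1328 and 605.2 in TCDD samples, against 648 and 1995 in controls, with none at 0 and 6 of 7 past the filter. Over all 4 arrays the summed signals ran from 627.5 to 757 for B cell markers, 987.3 to 1590 for keratinocyte markers, 954.6 to 1269 for melanocyte markers, 917.6 to 1248 for fibroblast and endothelial markers and 719.8 to 737.7 for mast cell, granulocyte and monocyte markers. The part of RNA quality or of other cells in the Relb values was not tested, and in bulk samples fewer cells of a type and less RNA per cell cannot be told apart.

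**Figure D2:**
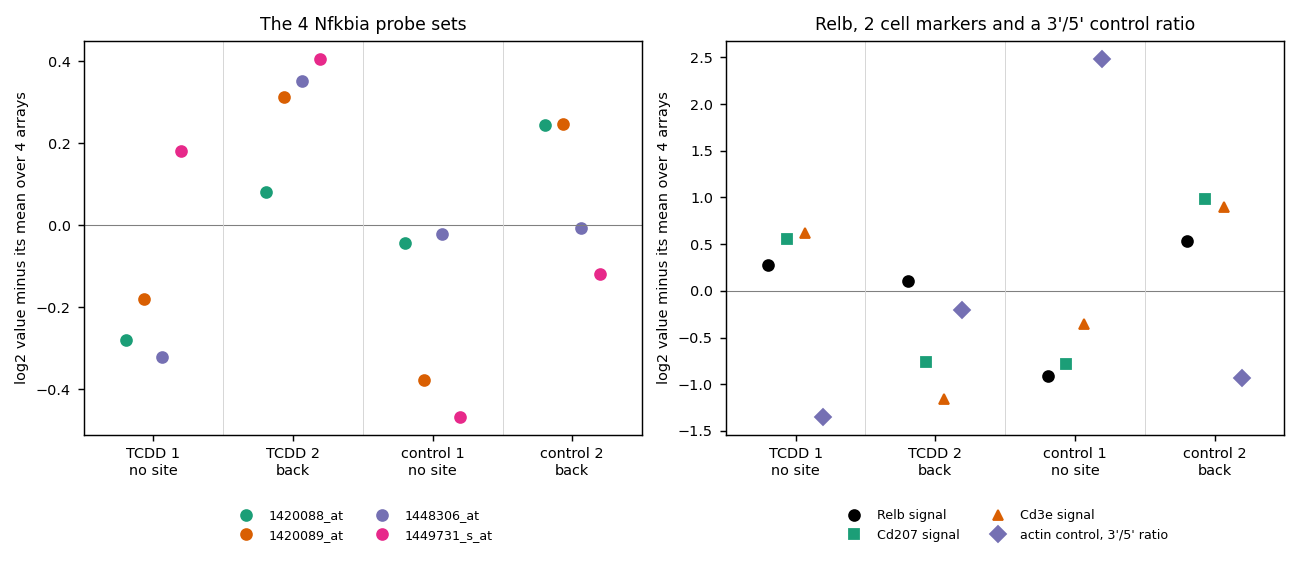
Log2 value minus its mean over the 4 arrays, 1 point per array, for the 4 probe sets of Nfkbia (left) and for Relb, Cd207, Cd3e and the 3′ to 5′ ratio of the actin control (right). The markers Epcam and Krt14, not shown, had other orders of arrays than Relb. On control 1, Relb is at its lowest and the actin ratio at its highest, 49.7; Nfkbia 1449731_s_at is above its mean on both TCDD arrays and below it on both controls.

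The genes whose pattern over the 4 arrays was nearest to that of Relb were Tgfbr3, Rnasek, Snrpb and Fbxw9. Their root mean square distances from Relb, in log2 units after each gene was centred on its own mean, were 0.03, 0.04, 0.05 and 0.06. Snrpb, which encodes a core protein of the splicing particles, had 1253 and 1021 in TCDD samples, against 508.5 and 1381 in controls. With 4 arrays and 8413 genes compared, such closeness is a description only.

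Rel and Rela encode c-Rel and RelA, the subunits with transactivation domains that act mainly in the canonical pathway. On the deposited signals, Rel was the only member that lay lower in both TCDD samples than in both controls. It had 878.9 and 763.8 in TCDD samples, against 999.2 and 1069.7 in controls. The groups did not overlap, yet the log2 difference of -0.34 ± 0.34 did not pass (limma, adjusted p = 0.9999, 95% interval -1.12 to 0.45). It was between -0.44 and -0.23 when single arrays were left out. Its sign could not turn there, since the groups did not overlap. Rela had 2584 and 2987 in TCDD samples, against 1845 and 2904 in controls, so that control 1 was the lowest array and the other 3 lay close together. Its log2 difference was 0.26 ± 0.34 over the 4 arrays and -0.06 without control 1.

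Nfkb2 encodes p100, precursor of p52 and an inhibitor of RelB dimers, and was read by 2 probe sets. Probe set 1425902_a_at had 1138 and 1549 in TCDD samples, against 1369 and 1719.9 in controls. Probe set 1429128_x_at had 438.7 and 588.7 in TCDD samples, against 482 and 730.6 in controls. Both gave the same order of arrays, with TCDD 1 lowest and control 2 highest, and both were lower after TCDD at each site, with log2 differences of -0.21 ± 0.34 and -0.22 ± 0.34 that did not pass. The first gave 0.01 without TCDD 1 and the second 0.08 without control 2. The probe set ending in _x_at is of the kind that can share probes with other transcripts. The same holds for the kind ending in _s_at, among the members 1449731_s_at of Nfkbia and 1421266_s_at of Nfkbib.

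Among the inhibitors, the 4 probe sets of Nfkbia gave different estimates, with 95% intervals that overlapped. Differences between these probe sets were not tested. Nfkbia encodes IkB alpha, the inhibitor that NF-kB itself induces most quickly. Probe set 1449731_s_at was the only member to lie higher in both TCDD samples than in both controls, at 8635 and 10092 in TCDD samples, against 5506 and 7011 in controls. This is a 1.50-fold difference, log2 0.59 ± 0.30 (95% interval -0.10 to 1.27), the member with the smallest unadjusted p for TCDD, 0.084, and an adjusted p of 0.9999 (limma). The log2 difference was between 0.41 and 0.76 when single arrays were left out. Its sign could not turn there, since the groups did not overlap.

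The other 3 probe sets of Nfkbia did not share this pattern. Probe set 1420088_at had 19912 and 25560.3 in TCDD samples, against 23449 and 28623 in controls, and was lower after TCDD at both sites (log2 -0.20 ± 0.26). This difference was -0.02 without TCDD 1, -0.06 without control 2, -0.34 without control 1, -0.38 without TCDD 2 and -0.04 after quantile normalization. Probe set 1448306_at had 7035 and 11231 in TCDD samples, against 8664 and 8759.5 in controls, so that the controls lay between the TCDD samples (log2 0.03 ± 0.32). Probe set 1420089_at had 978.9 and 1379 in TCDD samples, against 854.1 and 1317 in controls, a log2 difference of 0.13 ± 0.34 that was -0.18 without control 1 and -0.12 without TCDD 2. The files do not say where along the transcript each probe set lies. A direction for Nfkbia as a gene can therefore not be given from these arrays.

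The remaining IkB genes showed small differences. Nfkbib, for IkB beta, had 2976 and 3109 in TCDD samples, against 2980 and 3539 in controls, the narrowest range of all members (log2 -0.09 ± 0.33). Nfkbie, for IkB epsilon, had 771.8 and 853.1 in TCDD samples, against 963.5 and 710.7 in controls (log2 -0.03 ± 0.35). The TCDD samples of Nfkbie lay between the controls, and its direction turned without control 1, to 0.19.

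Bcl3 encodes an IkB-like nuclear protein that binds p50 and p52 dimers on DNA. It had 633.5 and 738.3 in TCDD samples, against 1079.6 and 709.1 in controls, so control 1 was high and the other 3 arrays were alike. The log2 difference was -0.36 ± 0.37 over the 4 arrays but -0.05 without control 1 and -0.66 without control 2 (limma, adjusted p = 0.998 and 0.449). Tnfaip3 encodes A20, a ubiquitin-editing enzyme that shuts off signalling to NF-kB. Its signals were close to the filter, at the 46.9th percentile of mean log2 signal over all probe sets, and read 161 and 145 in TCDD samples, against 166.9 and 136.3 in controls (log2 0.02 ± 0.42, 95% interval -0.93 to 0.97).

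**Figure D3:**
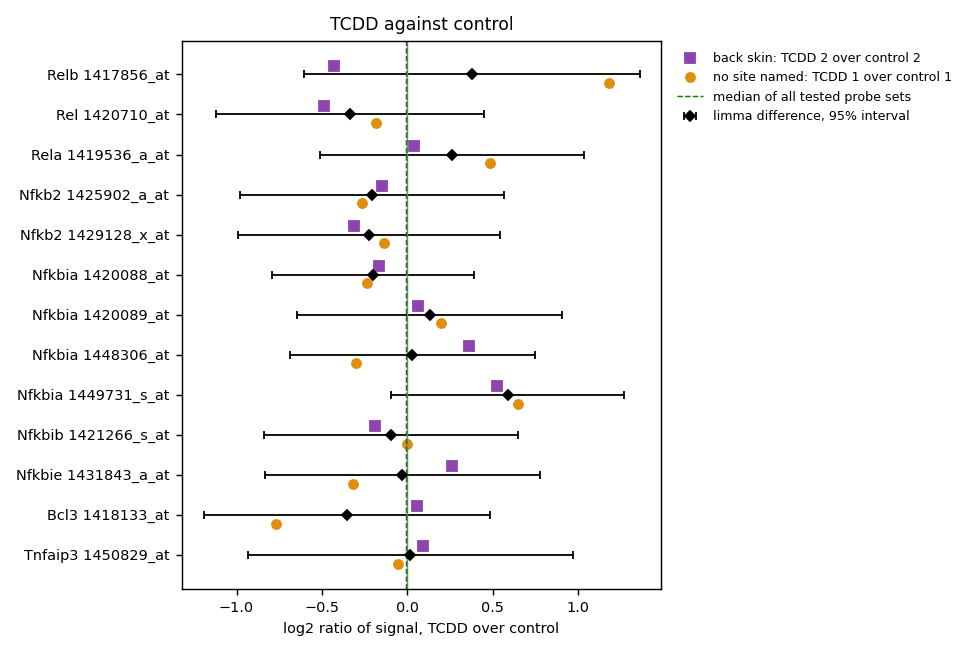
Log2 ratio of signal, TCDD over control, for each probe set: black diamonds with bars are the limma difference and its 95% interval over all 4 arrays, purple squares the back skin pair and orange circles the pair with no site named. All 13 intervals include 0, and Relb has the widest split between the sites, -0.43 in back skin and 1.18 where no site is named.

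The same fit compared back skin with the arrays that name no site. Site and experiment cannot be told apart in this comparison, since the controls carry different experiment dates. Of the 13 probe sets, 0 passed the test (limma, 0.0% of all tested passed, smallest adjusted p 0.9994), and 0 had an unadjusted p under 0.05, against 2.02% of all tested. In 7 probe sets of 4 genes, both back skin arrays lay above both other arrays, which was so for 16.1% of all tested probe sets. The genes were Rela, Nfkb2 with both probe sets, Nfkbia with 3 of its 4, and Nfkbib. Probe sets of 1 gene read the same RNA and are not independent. Lower in both back skin arrays was Tnfaip3 alone (15.9% of all tested). The median log2 difference, back skin minus no site named, was 0.32 over the members and 0.01 over all tested probe sets.

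Within the treatments, 8 of the 13 were higher in back skin in both the TCDD and the control pair, against 22.8% of all tested. They include all 4 probe sets of Nfkbia and both of Nfkb2, so the count is not one of independent genes. Over all tested probe sets, the log2 ratios of these pairs had a Pearson's r of -0.18. Control 1, with an actin 3′ to 5′ ratio of 49.7, is among the arrays that name no site, and its part here was not tested. Nfkb2 1429128_x_at gave log2 ratios of 0.42 in the TCDD pair and 0.60 in the control pair, a fitted difference of 0.51 ± 0.34. Nfkbia 1420089_at gave 0.49 and 0.63 in those pairs, a fitted difference of 0.56 ± 0.34. Rela gave 0.21 and 0.65, and Nfkb2 1425902_a_at gave 0.45 and 0.33. Without control 1 their fitted differences were 0.19 and 0.52, against 0.43 and 0.39 over the 4 arrays. Relb had the largest fitted difference, 0.64 ± 0.43, but its ratios went opposite ways, -0.17 in the TCDD pair and 1.44 in the control pair, and the difference was 0.05 without control 1 and 1.23 without TCDD 1 (limma, adjusted p = 0.999 and 0.138). After each array was centred on its median, 5 of the 7 probe sets still had groups that did not overlap (12.8% of all tested); Nfkbia 1448306_at and Nfkbib did not.

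**Figure D4:**
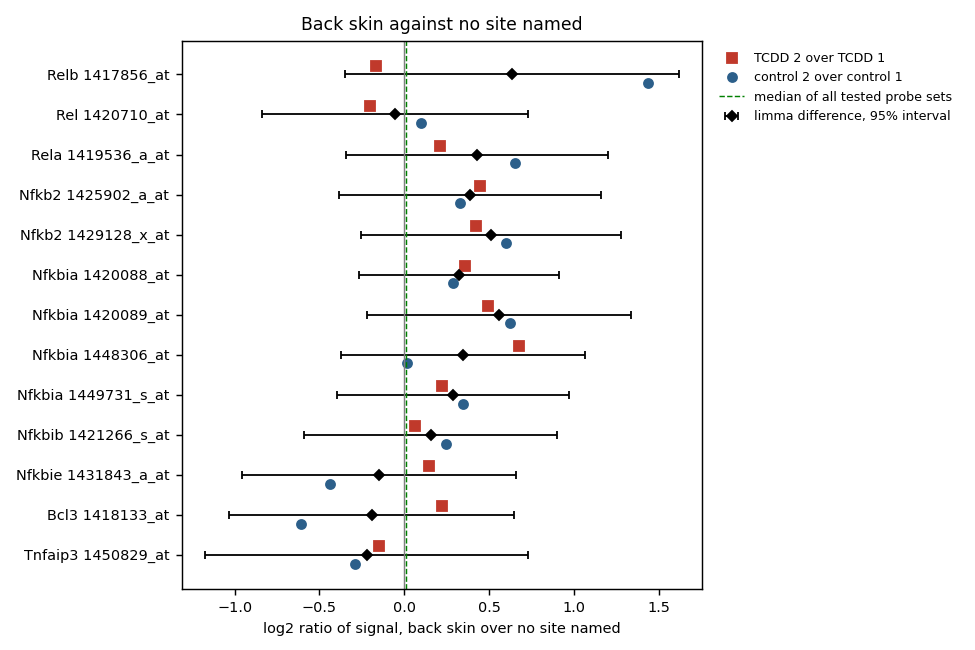
Log2 ratio of signal, back skin over no site named, for each probe set: black diamonds with bars are the limma difference and its 95% interval, red squares the TCDD pair and blue circles the control pair, and the dashed line is the median of all tested probe sets, 0.01. Of the 13 differences 9 are above 0, and all intervals include 0.

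Genes around the pathway were read from 6 lists, each gene by its brightest probe set. In every list 0 genes passed the test for TCDD in either direction (limma), and over all 8413 genes tested 17.9% were higher and 22.8% lower after TCDD at both sites. Of 19 genes of the IkB kinase complex and upstream signalling, 3 were higher and 3 lower at both sites, with a median log2 difference of -0.01. Ikbkb, for the kinase IKK beta, had 5092 and 6322 in TCDD samples, against 9025 and 4659 in controls (log2 -0.19 ± 0.38). Ikbkg, for the scaffold protein NEMO, had 660.7 and 655.8 in TCDD samples, against 1152 and 641.3 in controls (log2 -0.39 ± 0.37). For both, control 1 was the highest array, as for Bcl3.

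Of 7 tested genes of the alternative pathway, 1 was higher and 3 were lower at both sites (median -0.09). Map3k14, for the kinase NIK that starts p100 processing, was the gene that was higher, with 1753 and 2377 in TCDD samples, against 1573 and 2086 in controls (log2 0.17 ± 0.34). Cd40, a receptor that feeds this pathway, had 10681 and 12957 in TCDD samples, against 13992 and 13428 in controls (log2 -0.22 ± 0.29). Of 11 other inhibitors of NF-kB, 3 were higher and 3 lower at both sites. Nfkbiz, for the nuclear protein IkB zeta, had 1277 and 1094 in TCDD samples, against 1084 and 848.9 in controls (log2 0.30 ± 0.34). Tnip1, for an A20-binding protein, had 1614 and 2306 in TCDD samples, against 2509 and 2586 in controls (log2 -0.40 ± 0.34).

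Of 23 tested NF-kB target genes, 3 were higher and 2 lower at both sites, and 18 went opposite ways, with a median of -0.01. Cd83, a maturation marker of dendritic cells, had 11449 and 12129.7 in TCDD samples, against 15109 and 11952 in controls (log2 -0.19 ± 0.29). Ccl22, a chemokine of mature dendritic cells, had 28132 and 34714 in TCDD samples, against 34761 and 29083 in controls (log2 -0.02 ± 0.27). Ccr7, the receptor that leads dendritic cells to lymph nodes, had 12119 and 15147 in TCDD samples, against 10298 and 18103 in controls (log2 -0.01 ± 0.29). Icam1, an adhesion molecule, and Traf1, a signalling adaptor, differed by -0.16 ± 0.31 and 0.05 ± 0.36. For each of these 5 genes the log2 ratios at the sites had opposite signs. The largest differences of the list, named after their values were seen, were those of Il1b, the cytokine interleukin 1 beta, and Ccl5, a chemokine. Il1b was higher at both sites and had 6031 and 9509 in TCDD samples, against 3882 and 4178 in controls. Its log2 difference was 0.91 ± 0.32 (limma, unadjusted p = 0.021, adjusted p = 0.9999). No other of the 23 genes had an unadjusted p under 0.05, which 106 of all 8413 genes tested had. Ccl5 had 4179 and 8229 in TCDD samples, against 13766 and 7913 in controls (log2 -0.83 ± 0.43). Tnf lay below the filter at 63.6 and 194.9 in TCDD samples, against 118.1 and 49.4 in controls.

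Of 9 tested nuclear partners of NF-kB, 2 were higher and 1 lower at both sites. Hdac3, a histone deacetylase, was higher at both (log2 0.22 ± 0.34). The AhR list had 1 of 6 genes higher and 1 lower at both sites. Ahr had 1127 and 681.4 in TCDD samples, against 910.8 and 1392 in controls (log2 -0.36 ± 0.41), and Cyp1a1, the classic enzyme induced through AhR, had 94.9 and 190.7 in TCDD samples, against 182.8 and 117.8 in controls (log2 -0.13 ± 0.51). Tiparp, another AhR target and the gene higher at both sites, differed by 0.32 ± 0.35. The gene lower at both was Cyp1b1, a related enzyme named after its values were seen, with 128.4 and 83.3 in TCDD samples, against 142.3 and 170.9 in controls (log2 -0.59 ± 0.48). Signals of Cyp1a1 and Cyp1b1 lay close to the filter, a geometric mean of 115.4, so their differences are those of low signals.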

How the data were processed

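Each of the 4 samples was hybridised to its own one-colour Affymetrix array. The deposited table holds linear MAS5 intensities, and per the submitters' processing notes affy and MAS5 were used, with no version named there. From the values, the authors had scaled each array to a mean of 500 after removal of the lowest and highest 2% of probe sets. Of 22690 probe sets, 64 Affymetrix controls were used only for the 3′ to 5′ ratios. Of the other 22626, 20380 had 1 gene symbol in the platform annotation, 691 several and 1555 none. All 9 member genes matched RefSeq (GRCm38.p6) by gene ID.

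Signals were taken to log2 without further normalization, and the 13576 probe sets at or above the 40th percentile of mean log2 signal were tested with limma 3.58.1 (R 4.3.3), with treatment and site as additive terms and a variance trend, at an adjusted p of 0.05. The fit has 1 residual degree of freedom, moderated across probe sets, and was tested on simulated data. These had independent errors drawn from the fit's own variances, and planted differences larger than any of the members. They held no site effect and no array of poor RNA quality, so the fit was not tested under those conditions. Precision is limited by the number of arrays, with a median standard error of 0.36 log2 units. Across probe sets, the log2 ratios of back skin to no site named in controls and in TCDD samples had a Pearson's r of -0.18. Arrays of 1 site thus did not deviate together. The residual degree of freedom compares TCDD 1 and control 2 with TCDD 2 and control 1. With a negative r, the standard errors of this fit may be too large and its p-values too high. Alternatives were other scalings, filters, an offset or floor of 50, no trend, other terms, 1 probe set per gene and each array left out. The members and lists were chosen with earlier results of these data known. Members were named in full, other genes by role from the lists. Of the genes to be named, Chuk, Cyld, Traf3 and Ep300 were not analysed here.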

Additional observations from a re-analysis of the deposited data

Results flagged for a closer look

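For 5 probe sets the log2 ratio of TCDD to control had opposite signs in back skin and where no site was named. Each site holds 1 pair of arrays, so the differences between the ratios were not tested, and 59.3% of all tested probe sets also had opposite signs. The back skin ratio minus the other was -1.61 for Relb, where the low value was on control 1, the array with an actin 3′ to 5′ ratio of 49.7. It was 0.83 for Bcl3, 0.66 for Nfkbia 1448306_at, 0.58 for Nfkbie and 0.14 for Tnfaip3. In Bcl3 and Nfkbie control 1 was the highest array, and in Relb the lowest.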

How the results depend on the processing

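Over all probe sets, 0 passed for TCDD and 0 for the site under the scaling, filter, offset, floor, trend and 1-probe-set-per-gene settings and without the other term, which for TCDD is the site block (limma; over the 4 arrays with both terms 199 had an unadjusted p under 0.05 for TCDD and 274 for the site). Leaving out single arrays gave 0 to 285 for TCDD, 12 without control 1 and 285 without control 2, and 0 to 89 for the site, 89 without TCDD 1. A crossed replicate block (TCDD 1 with control 2), chosen after seeing the data, gave 10 for TCDD; no member was among these calls in any setting. No setting other than leaving out an array turned the direction of a member. The filter, trend, floor, term and 1-probe-set-per-gene settings could not turn it, since they left each member's log2 difference as it was. Median centring moved all differences of a comparison by the same amount. Fits without an array have no second term and take the lone array of a group to vary like the others. In them the log2 difference for TCDD turned within a range of -0.34 to 1.10 for Relb 1417856_at, -0.064 to 0.59 for Rela 1419536_a_at, -0.43 to 0.014 for Nfkb2 1425902_a_at, -0.52 to 0.076 for Nfkb2 1429128_x_at, -0.18 to 0.44 for Nfkbia 1420089_at, -0.31 to 0.37 for Nfkbia 1448306_at, -0.22 to 0.029 for Nfkbib 1421266_s_at, -0.25 to 0.19 for Nfkbie 1431843_a_at and -0.13 to 0.16 for Tnfaip3 1450829_at. For back skin it turned within -0.29 to 0.19 for Rel 1420710_at, -0.038 to 0.61 for Nfkbia 1449731_s_at, -0.31 to 0.013 for Nfkbie 1431843_a_at and -0.58 to 0.19 for Bcl3 1418133_at. The cause was not tested.

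With 2 arrays per group, the 95% intervals of the members' log2 differences for TCDD reached 0.59 to 0.98 to either side of the estimate. The labels of control 2 conflict, RNA quality differed between arrays, and detection calls were not used here. Genes other than Nfkbia and Nfkb2 rest on 1 probe set each.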
